A study of Homo sapiens with 6 samples.

Results

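The mRNAs described here encode 9 proteins, most of them with a role in translation, and were grouped as TOP mRNAs. The proteins are the elongation factors EEF1A1, EEF1B2, EEF1D, EEF1G and EEF2, the tumour protein TPT1 and the cytoplasmic poly(A)-binding protein PABPC1. The others are the nascent polypeptide-associated complex subunits NACA and BTF3. The mRNAs were chosen by gene symbol. Every cross-link position listed under a symbol was taken, the cDNA counts were summed over unique positions, and positions were placed on the MANE Select transcript (the reference transcript agreed between Ensembl and RefSeq) of GENCODE release 44. The 9 genes are part of 13668 protein-coding genes, and of 22125 genes in all, that had a count in either cell line.

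The data are eIF4B iCLIP from DoHH-2, a line of diffuse large B-cell lymphoma, and GM01953, a B-cell line used as the control. Cells were cross-linked with UVC light, the RNA was partly digested with RNase I, and the RNA fragments attached to eIF4B were recovered with an anti-eIF4B antibody and sequenced, so that each cDNA count marks a nucleotide where the cross-linked protein ended reverse transcription. The 4 DoHH-2 replicates and the 2 GM01953 replicates were pooled before the values were deposited, and each line has 1 value per position, so that there is no SD, no replicate check and no test of a difference. Each group is 1 cell line, without genetic manipulation or drug treatment in the labels, and the lines differ in more than disease state.

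TOP mRNAs begin with a cytidine at the cap followed by an uninterrupted run of pyrimidines. The run makes their translation sensitive to mTOR signalling, through proteins such as LARP1 that hold the capped start when mTOR is inactive. eEF1A1 delivers aminoacyl-tRNA to the ribosome, and the eEF1B complex of EEF1B2, EEF1D and EEF1G reloads it with GTP. eEF2 moves the ribosome along the mRNA by a codon at a time. PABPC1 binds poly(A) tails and can repress its own mRNA through an adenine-rich stretch in the 5′ UTR. NACA and BTF3 pair on emerging peptide chains, and TPT1 (also called TCTP) is a small, very abundant growth-associated protein. eIF4B itself assists the helicase eIF4A in unwinding 5′ UTRs.

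The annotated starts are shown first because they carry the feature that defines the class. Each line gives the first 30 nt of the MANE Select mRNA, 5′ to 3′, read from GRCh38 as DNA letters, with the pyrimidine run at the first base in capitals. The stretches lie at chr6:73521003-73521032 (minus strand) for EEF1A1, chr2:206159895-206159924 (plus) for EEF1B2, chr11:62573862-62573891 (minus) for EEF1G, chr19:3985434-3985463 (minus) for EEF2, chr13:45341154-45341183 (minus) for TPT1, chr12:56725270-56725299 (minus) for NACA and chr5:73498442-73498471 (plus) for BTF3. All are 5′ UTR.
EEF1A1: CTTTTTCgcaacgggtttgccgccagaaca
EEF1B2: CCTTTTTCCTCTCTTCagcgtggggcgccc
EEF1G: actttgcggcagcgccgagaaccccacccc
EEF2: CTCTTCCgccgtcgtcgccgccatcctcgg
TPT1: CTTTTCCgcccgctcccccctccccccgag
NACA: CTTTCTgccgccatcttggttccgcgttcc
BTF3: CCCTTTagctgccatcttgcgtccccgcgt

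Of the 9 annotated mRNAs, 8 start with C. The run from the first base was 16 nt long in EEF1B2, 12 in PABPC1, 9 in EEF1D, 7 in EEF1A1, EEF2 and TPT1, and 6 in NACA and BTF3. The exception was EEF1G, whose annotated start is an A in front of 4 pyrimidines. In TPT1 a longer run of 15 pyrimidines follows from base 13.

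DoHH-2 held 2033156 cDNA counts at 1179243 positions and GM01953 held 167197 at 78474, so intervals are wider in GM01953. Of the 8 B-cell markers checked, 7 had counts in DoHH-2, where CD22 had 0, and all 8 had counts in GM01953. The T-cell and myeloid markers CD3E, CD3D, CD2, CD14, LYZ and CSF1R had 0 counts in either line, and of the epithelial markers EPCAM had 2 counts in DoHH-2 while KRT8 had 0. Intervals below are 95% intervals (exact Poisson for counts, Wilson for shares, exact conditional for ratios of shares), and they cover counting error only.

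The 9 mRNAs together took nearly equal shares of eIF4B-linked cDNA in the lymphoma line and in the control line. In DoHH-2 they held 7477 counts at 3315 positions, or 0.368% of all counts (0.360% to 0.376%). In GM01953 they held 612 counts at 316 positions, or 0.366% (0.338% to 0.396%). The ratio of the shares was 1.01 (0.925 to 1.09). The amount of each mRNA in the cells is not part of these files, and more mRNA and more eIF4B per mRNA cannot be told apart in any value below. The ratio depended on which positions and which totals were used. It was 1.47 at positions with an FDR below 0.05, the authors' measure of local enrichment within a gene, and 0.698 when each position was counted once.

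EEF2 held by far the most eIF4B cross-links of the elongation factor mRNAs. EEF2 had 2858 counts in DoHH-2, or 1406 CPM (counts scaled to a library total of 1000000; 1355 to 1458), and 251 counts in GM01953, or 1501 CPM (1321 to 1699). It ranked 44 among the coding genes of DoHH-2 and 34 in GM01953, and its ratio of shares was 0.936 (0.823 to 1.07). The other elongation factor genes lay far lower. EEF1A1 had 307 and 19 counts in DoHH-2 and GM01953, which is 151 and 114 CPM. EEF1B2 had 260 and 16 counts (128 and 95.7 CPM), and EEF1G had 228 and 18 (112 and 108 CPM). The ratios of shares were 1.33 (0.836 to 2.24) for EEF1A1, 1.34 (0.807 to 2.37) for EEF1B2 and 1.04 (0.644 to 1.79) for EEF1G, and each of these intervals included 1. On the mRNA alone the ratios were 0.932 (0.575 to 1.60) for EEF1A1 and 0.872 (0.513 to 1.59) for EEF1B2, below 1 where those of all positions were above it. At positions with an FDR below 0.05 the ratios were 1.63 for EEF2 and 2.72 for EEF1B2. Every EEF1G position was also listed under an overlapping gene model, RP11-864I4.1, and the counts of the pair cannot be told apart.

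EEF1D had the largest ratio in favour of DoHH-2. It had 402 counts in DoHH-2 (198 CPM, 179 to 218) and 14 in GM01953 (83.7 CPM, 45.8 to 141), a ratio of 2.36 (1.39 to 4.36). Most of these counts did not lie on the MANE Select mRNA: 269 of 402 in DoHH-2 (66.9%) and 9 of 14 in GM01953. On the mRNA alone the counts were 133 and 5, and the interval of the ratio of 2.19 then reached from 0.914 to 6.85. At positions with an FDR below 0.05 the ratio for EEF1D was 0.827, from 79 counts in DoHH-2 and 10 in GM01953, so that its direction turned.

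TPT1 was also higher in DoHH-2, and BTF3 was higher in GM01953. TPT1 had 1652 counts in DoHH-2 (813 CPM, 774 to 853) and 72 in GM01953 (431 CPM, 337 to 542), a ratio of 1.89 (1.49 to 2.42). BTF3 had 327 counts in DoHH-2 (161 CPM, 144 to 179) and 63 in GM01953 (377 CPM, 290 to 482), so that its share was 2.34-fold higher in GM01953 (1.76 to 3.08). BTF3 ranked 1001 among the coding genes of DoHH-2 and 232 in GM01953, whereas TPT1 ranked 87 and 192. Neither pair of intervals overlapped. At positions with an FDR below 0.05 the TPT1 ratio was 2.94 and that of BTF3 was 0.638.

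PABPC1 and NACA lay between these. PABPC1 had 987 counts in DoHH-2 (485 CPM, 456 to 517) and 105 in GM01953 (628 CPM, 514 to 760), a ratio of 0.773 (0.632 to 0.955). NACA had 456 counts in DoHH-2 (224 CPM, 204 to 246) and 54 in GM01953 (323 CPM, 243 to 421), a ratio of 0.694 (0.523 to 0.939). NACA and BTF3, which form a heterodimer, thus both had a larger share in GM01953, by 1.44-fold for NACA. For NACA a single position, base 6266 of the mRNA, held 14 of the 54 counts in GM01953 and 15 of the 456 in DoHH-2. The NACA ratio without this position was not computed. At positions with an FDR below 0.05, out of the counts at such positions, the ratios for PABPC1 and NACA were 0.973 and 0.924.

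**Figure D1:**
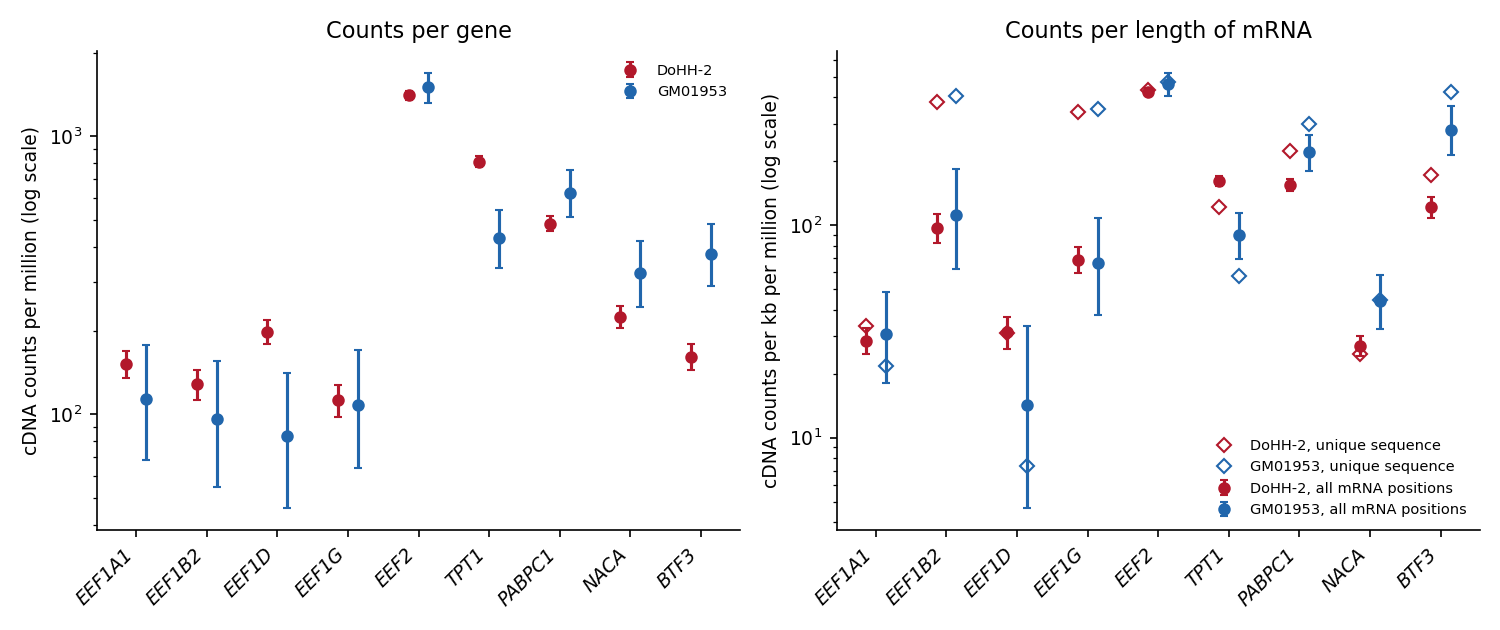
Left, CPM for each of the 9 genes, and right, CPM per kb of MANE Select mRNA, both on log scales. Circles show DoHH-2 in red and GM01953 in blue with 95% Poisson intervals, and diamonds use only positions in unique sequence. EEF2 is highest in both lines at 1406 and 1501 CPM. On the left the intervals of TPT1, EEF1D and BTF3 do not overlap between the lines. On the right those of EEF1D overlap, and those of TPT1, BTF3, PABPC1 and NACA do not.

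The median ratio of the 9 genes was 1.04, beside 1.07 over the 1908 coding genes with a mean of at least 100 CPM, whose quartiles were 0.678 and 1.58. EEF1D was the only 1 of the 9 at least 2-fold higher in DoHH-2, and 15.3% of the 1908 genes were. BTF3 was the only 1 at least 2-fold lower, and 15.7% of those genes were. TPT1 joined EEF1D, at a ratio of 2.01, when histone genes, which take a larger part of the DoHH-2 counts, were left out of the totals. The share of all coding genes past 2-fold with those totals was not computed.

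**Figure D2:**
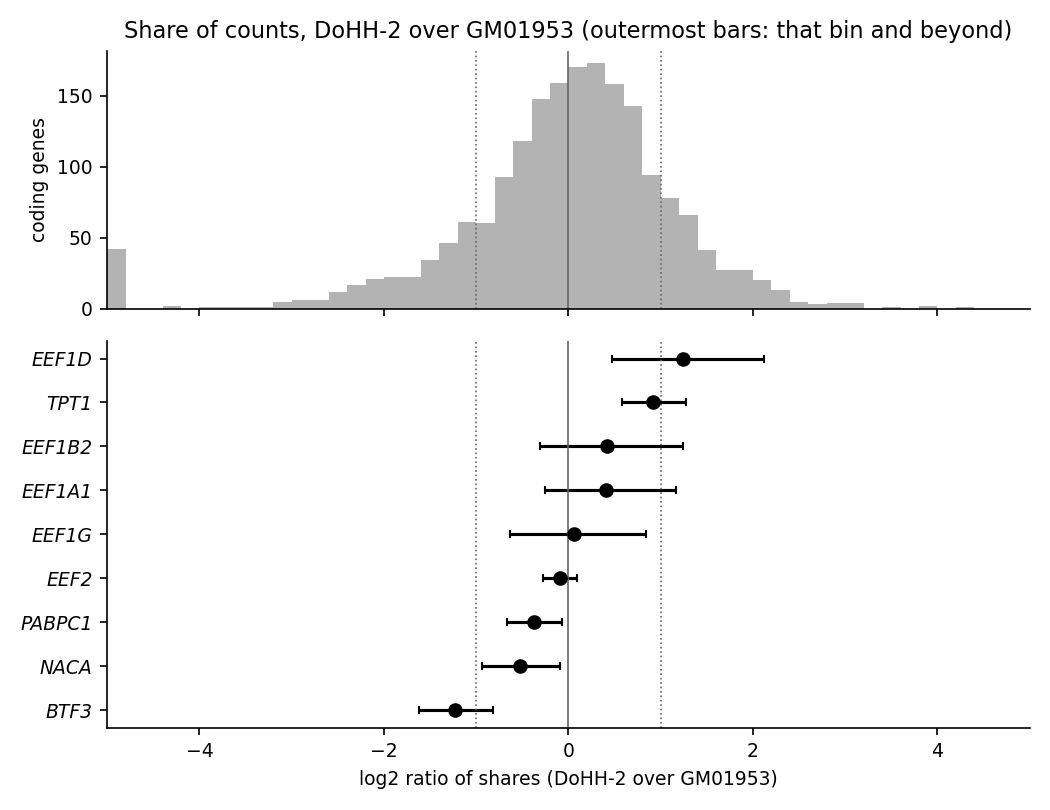
Top, the number of coding genes (of 1908) by log2 ratio of their share of counts, DoHH-2 over GM01953, and bottom, the 9 genes with 95% exact conditional intervals; dotted lines mark a 2-fold difference. The 9 points run from -1.23 for BTF3 to 1.24 for EEF1D, and the intervals of EEF1B2, EEF1A1, EEF1G and EEF2 cross 0.

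A gene was called bound when its positions with an FDR below 0.05 held more than 20 counts. The study also required enrichment in iCLIP over total RNA sequencing for its own bound genes. That step was not applied here, so bound does not have the study's meaning. In DoHH-2 all 9 genes were bound, beside 33.3% of coding genes with a count. Their counts at such positions ranged from 79 for EEF1D and 158 for EEF1A1 to 2086 for EEF2. In GM01953 the genes EEF2, TPT1, PABPC1, NACA and BTF3 were bound, 5 of 9, beside 8.34% of coding genes with a count. The other 4 (EEF1A1, EEF1B2, EEF1D and EEF1G) held between 7 and 13 counts at such positions there. GM01953 has far fewer counts in all, and not passing the threshold does not show that eIF4B was absent.

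The order of the levels per length differed from the order of the counts. In CPM per kb of MANE Select mRNA, DoHH-2 gave 423 for EEF2, 162 for TPT1, 154 for PABPC1, 121 for BTF3, 96.8 for EEF1B2, 68.4 for EEF1G, 31.3 for EEF1D, 28.6 for EEF1A1 and 27.0 for NACA. The intervals of TPT1 and PABPC1 overlapped, as did those of BTF3 and EEF1B2 and those of the lowest 3. GM01953 gave 460 for EEF2, 281 for BTF3, 220 for PABPC1, 111 for EEF1B2, 89.4 for TPT1, 66.2 for EEF1G, 44.01 for NACA, 30.7 for EEF1A1 and 14.3 for EEF1D. BTF3 thus came next after EEF2 in GM01953, where its interval overlapped that of PABPC1, and after EEF2, TPT1 and PABPC1 in DoHH-2. In DoHH-2 each of the 9 lay above 84.2% or more of the 10635 coding genes with counts on their mRNA, whose median was 6.69 CPM per kb, and EEF2 lay above 99.03% of them. In GM01953 EEF1D lay above 62.98% of 8406 such genes, EEF1A1 above 81.3% and the other members above 86.99% to 98.7%.

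Much of the sequence of several of these mRNAs is repeated elsewhere in the genome, processed copies included. A position was taken as unique when the 31 nt downstream of it occurred at no other place in GRCh38. By this measure 83.3% of the positions of EEF1G, 81.1% of EEF1B2, 52.7% of EEF1A1, 42.2% of PABPC1 and 37.8% of BTF3 were repeated, and 1.28% of EEF2. Per kb of unique sequence, the DoHH-2 levels of EEF1B2 and EEF1G were 378 and 340 CPM, next to 433 for EEF2, and the intervals of EEF1B2 and EEF2 overlapped. These levels rested on 147 unique nt of EEF1B2 and 237 of EEF1G, beside 3087 of EEF2. In EEF1B2, 34 of those nt lay in the 5′ UTR, its densest region. Those of PABPC1, BTF3 and TPT1 were 222, 172 and 122. EEF1A1, EEF1D and NACA were at 33.4, 31.1 and 24.9. The distance between EEF2 and the other elongation factors thus depended on this choice. On the MANE Select forms, EEF1A1 and EEF1D were the lowest of the elongation factors either way in DoHH-2. The EEF1D level also depended on the transcript. An EEF1D form of 926 nt, chosen after its values were seen, held 113 counts in DoHH-2 and 5 in GM01953. Its levels were 60.02 and 32.29 CPM per kb.

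The low level of EEF1A1, whose mRNA is among the most abundant in most human cells, came with very little unique coding sequence. Of the 1283 nt of its CDS outside the codon regions, 23 nt were unique, and they held 79 of the 166 CDS counts in DoHH-2. The 5′ UTR and the region around the start codon held no unique position at all. A stretch of 20 nt, from base 315 to base 334 of the mRNA, held 126 of the 204 mRNA counts in DoHH-2 (61.8%, 54.9% to 68.2%) and 12 of 18 in GM01953 (66.7%, 43.8% to 83.7%). Of these 20 positions, 8 were unique, and they held 70 counts in DoHH-2 and 6 in GM01953. In the 3′ UTR, where 80.9% of positions were unique, 33 counts lay in unique sequence in DoHH-2 and 0 in GM01953. GENCODE lists 49 processed copies of EEF1A1 by name. How far reads from the mRNA were lost or placed on copies was not tested.

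Along the mRNA, the 9 transcripts fell into different patterns. Each mRNA was divided into UTRs, CDS and the regions reaching 50 nt to either side of the start and stop codons. The 5′ UTR and start codon region together held 993 of 6471 mRNA counts in DoHH-2 (15.3%, 14.5% to 16.2%) and 146 of 577 in GM01953 (25.3%, 21.9% to 29.01%). Summed over the coding genes with more than 20 mRNA counts in the line, 7597 in DoHH-2 and 972 in GM01953, the shares were 16.4% and 23.3%. In GM01953 only 5 of the members passed this limit, and their summed share was 25.8%. The densest region was the 5′ UTR or the start codon region for 5 of the 9 in DoHH-2 (EEF1A1, EEF1B2, EEF1G, TPT1 and BTF3), beside 68.7% of the coding genes with more than 20 mRNA counts. For EEF1A1 this rested on 2 counts in 13 nt. The densest region also depended on the transcript. In DoHH-2 it was the start codon region on the EEF1D form of 926 nt, and the stop codon region on a TPT1 form of 1101 nt. The 5′ UTR and start codon region held 30.97% of the counts on that EEF1D form in DoHH-2 (23.19% to 40.01%). On the MANE Select form of EEF1D they held 5.26%.

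**Figure D3:**
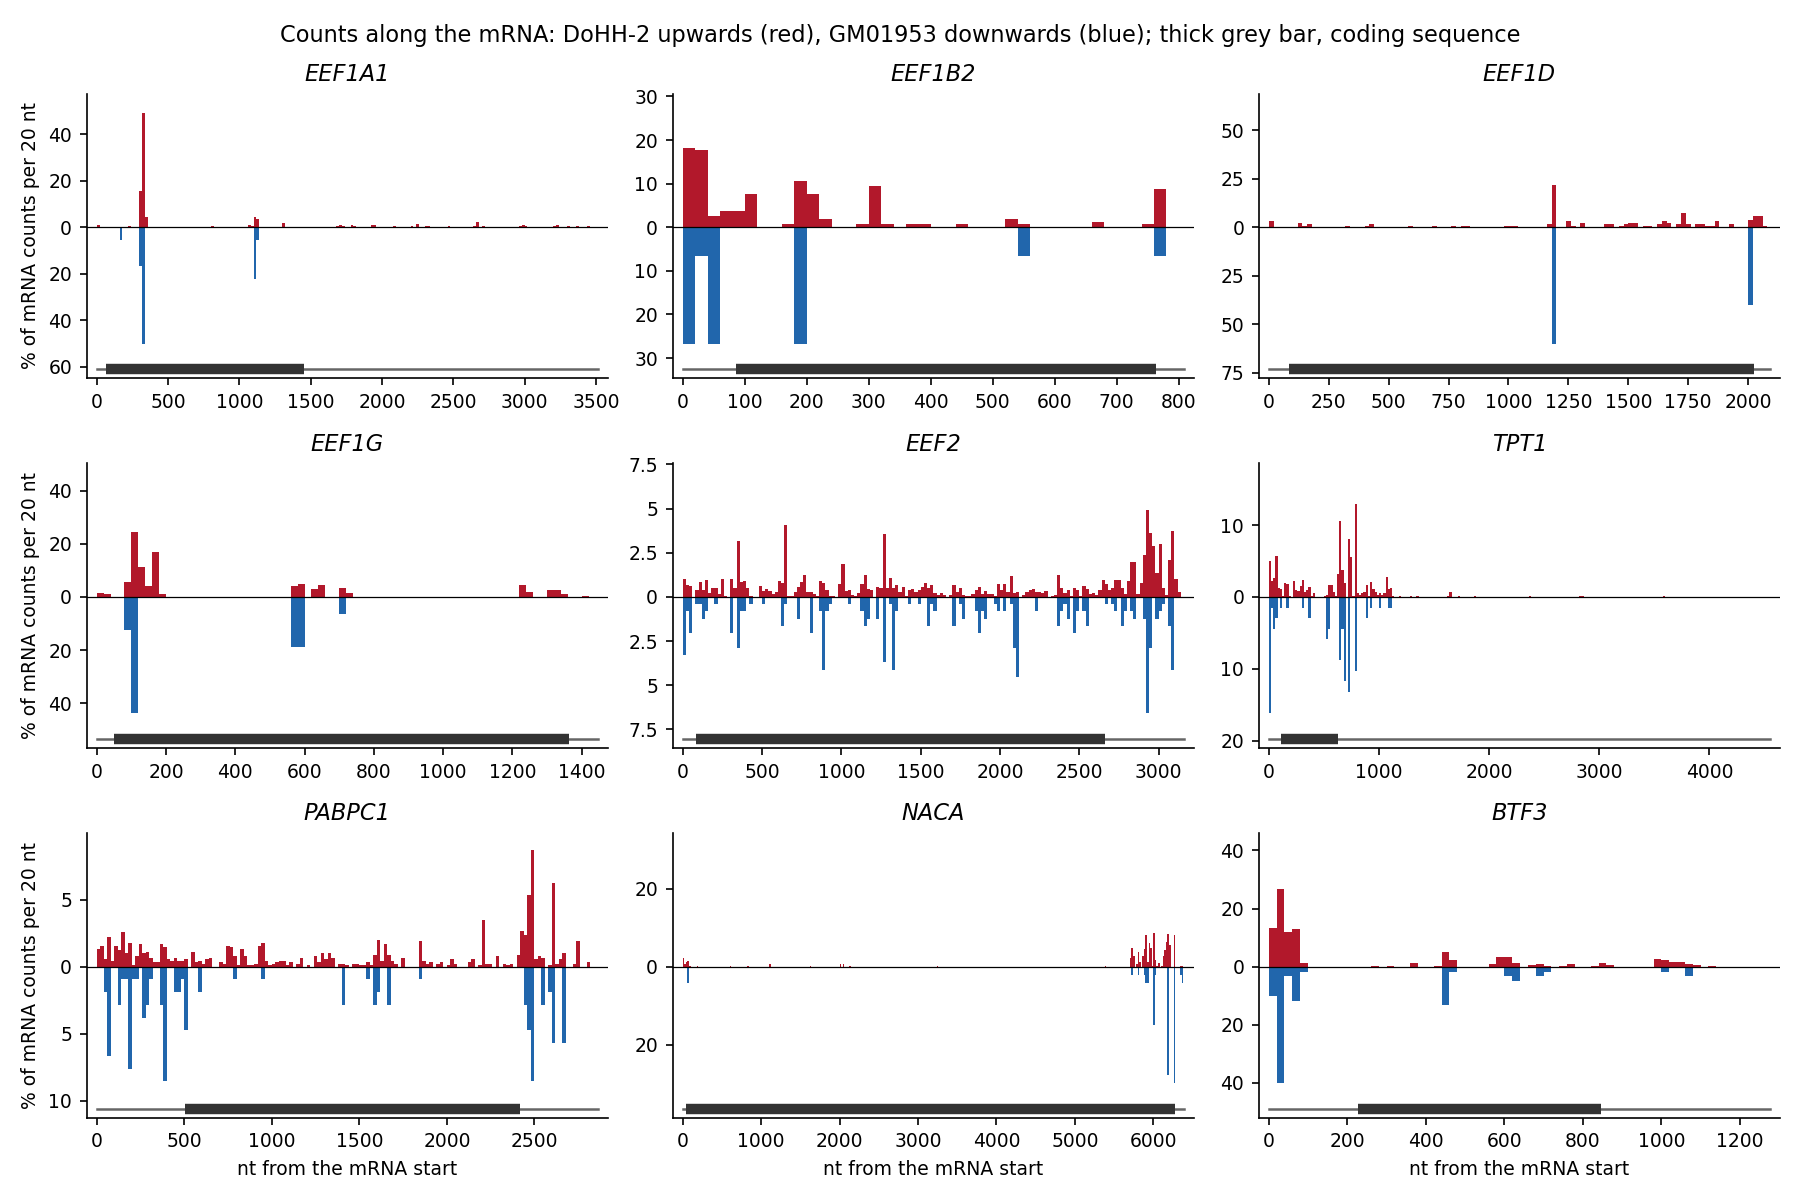
Counts in windows of 20 nt along each MANE Select mRNA, as a percentage of that mRNA's counts, with DoHH-2 upwards in red and GM01953 downwards in blue; the thick bar marks the coding sequence. BTF3 is highest near the 5′ end and EEF2 in its 3′ UTR in both lines, and EEF1B2 is highest near the 5′ end in DoHH-2. In GM01953 the EEF1B2 windows from bases 1, 41 and 181 tie at 4 counts, and the last lies in the CDS. NACA lies mostly in the last 689 nt. TPT1 is highest in the 3′ UTR in DoHH-2 (194 counts) and over the first 20 nt in GM01953 (11 counts).

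BTF3 was bound at its 5′ end in both lines. Its 5′ UTR and start codon region held 210 of 315 mRNA counts in DoHH-2 (66.7%, 61.3% to 71.6%) and 40 of 60 in GM01953 (66.7%, 54.1% to 77.3%). All but 1 of these counts, in DoHH-2, lay in the 5′ UTR, at 1188 counts per kb against 130 per kb in the CDS. The whole 5′ UTR of BTF3 is unique sequence. The 20 nt with most counts in DoHH-2, from base 21 to base 40, held 84 counts in DoHH-2 and 24 in GM01953, or 26.7% and 40.0% of the mRNA counts.

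EEF1B2 also had most of its mRNA counts towards the 5′ end, on fewer counts. Its 5′ UTR and start codon region held 85 of 159 mRNA counts in DoHH-2 (53.5%, 45.7% to 61.0%) and 9 of 15 in GM01953 (60%, 35.8% to 80.2%). In unique sequence the outline was less clear. There the DoHH-2 density was 1294 counts per kb in the 5′ UTR, 464 in the start codon region, 603 in the CDS and 1000 in the stop codon region. The CDS value rested on 73 of 572 nt and that of the stop codon region on 12 of 98 nt. In GM01953 unique sequence held 4 counts in the 5′ UTR, 0 in the start codon region and 5 in the CDS. A further 74 of its 260 counts in DoHH-2 lay upstream of the MANE Select start. In GM01953 0 of 16 did, with an upper limit of 19.4%.

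PABPC1 differed between the lines in where its counts lay. The 5′ UTR and start codon region held 239 of 898 mRNA counts in DoHH-2 (26.6%, 23.8% to 29.6%) and 54 of 105 in GM01953 (51.4%, 42.0% to 60.8%). A larger 5′ share in GM01953 was not particular to PABPC1. Summed over coding genes with more than 20 mRNA counts it was 16.4% in DoHH-2 and 23.3% in GM01953. The CDS held 366 counts in DoHH-2 (40.8%, 37.6% to 44%) and 17 in GM01953 (16.2%, 10.4% to 24.4%), and neither pair of intervals overlapped. The 3′ UTR share was alike, at 25.6% and 26.7%, and bases 2478 to 2497, the 20 nt with most counts in DoHH-2, held 78 and 9 counts. This stretch held 8.69% of the mRNA counts in DoHH-2 and 8.57% in GM01953.

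Within the 505-nt 5′ UTR of PABPC1, cross-links were no denser on the adenine-rich stretch than elsewhere. The 60 nt richest in adenine, bases 73 to 132, are 66.7% adenine and overlap the part known for binding PABPC1 itself. They held 28 of 234 5′ UTR counts in DoHH-2 (11.97%, 8.41% to 16.8%), a density of 467 counts per kb beside 463 over the whole 5′ UTR. In GM01953 they held 0 of 50, which allows a share of up to 6%. In windows of 100 nt the DoHH-2 density ran from 730 per kb at bases 101 to 200, which include the end of the adenine-rich stretch, to 230 per kb at bases 401 to 500.

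EEF2 was bound along its whole length, with the highest density past the stop codon in DoHH-2. In that line the 3′ UTR held 941 counts in 448 nt, or 2100 per kb (1968 to 2239), the 33 nt of 5′ UTR held 42, or 1273 per kb (917 to 1720), and the CDS held 1601, or 648 per kb (617 to 680). In GM01953 the 5′ UTR was densest, with 8 counts (242 per kb, 105 to 478), followed by the 3′ UTR with 59 (132 per kb, 100 to 170), and these intervals overlapped. The 3′ UTR held 34.6% of the mRNA counts in DoHH-2 (32.9% to 36.4%) and 24.3% in GM01953 (19.3% to 30.04%). The 5′ UTR and start codon region held 3.90% in DoHH-2 (3.24% to 4.70%) and 8.23% in GM01953 (5.39% to 12.4%). Towards the 3′ end DoHH-2 thus had the larger share and towards the 5′ end GM01953 did, and in both cases the intervals did not overlap. Summed over coding genes with more than 20 mRNA counts, the 5′ share was also larger in GM01953, at 23.3% beside 16.4%.

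TPT1 had peaks at each end of its short coding sequence. In DoHH-2 the 5′ UTR held 175 counts in 64 nt (2734 per kb) and the stop codon region 273 in 103 nt (2650 per kb), beside 248 in 413 nt of CDS (601 per kb). In GM01953 the 5′ UTR held 15 counts and the stop codon region 9. The 3′ UTR of the MANE Select form is 3915 nt long, but the counts kept to its beginning: 728 of 1494 lay within 300 nt of the stop codon in DoHH-2 and 162 beyond it, and the numbers in GM01953 were 35 of 68 and 4. Bases 773 to 792 held the most of any 20 nt in DoHH-2, 194 counts (12.99%), and 7 in GM01953 (10.3%). A shorter TPT1 transcript of 1101 nt held 1440 counts in DoHH-2 and 67 in GM01953, which gave 643 and 364 CPM per kb, above EEF2 in DoHH-2. This shorter form was chosen after its values were seen.

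NACA illustrates how the choice of transcript sets a level. Its MANE Select form of 6387 nt includes an exon of 5589 nt that is known from muscle, and this exon held 13 of 350 mRNA counts in DoHH-2 and 0 of 47 in GM01953. The 689 nt downstream of it held 317 and 45 counts, a density of 460 counts per kb in DoHH-2 beside 2.33 in the long exon. On a NACA transcript of 964 nt without that exon, also chosen after its values were seen, the levels were 185 CPM per kb in DoHH-2 and 304 in GM01953, beside 173 and 413 for BTF3 on a transcript of 897 nt chosen in the same way.

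The first 50 nt, where the TOP run lies, held 445 counts in DoHH-2 (6.88% of mRNA counts, 6.29% to 7.52%) and 71 in GM01953 (12.3%, 9.87% to 15.2%), although they make up 1.73% of the summed length. Over the coding genes with more than 20 mRNA counts in the line, the shares were 6.36% (7597 genes) and 6.81% (972 genes). Over ribosomal protein mRNAs past the same limit, which are also TOP mRNAs, they were 12.5% and 11.2%. The 5 members past this limit in GM01953 had a share of 12.05%. BTF3 held 44.8% of its mRNA counts there in DoHH-2 (39.4% to 50.3%) and 53.3% in GM01953 (40.9% to 65.4%). EEF1B2 held 37.7% (30.6% to 45.5%) and 53.3% (30.1% to 75.2%). TPT1 held 8.50% (7.19% to 10.0%) and 22.1% (13.9% to 33.3%), and EEF2 held 2.32% (1.82% to 2.96%) and 6.17% (3.78% to 9.93%). For TPT1 and EEF2 the intervals did not overlap, so both had a larger part of their cross-links near the cap in GM01953. The BTF3 value depended on the transcript. On the BTF3 form of 897 nt, the first 50 nt held 12.7% in DoHH-2 (9.44% to 16.8%) and 9.68% in GM01953 (4.51% to 19.55%). The 5′ UTR and start codon region of that form held 68.7% and 67.7%.

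The other members had few counts near the start. In DoHH-2 the first 50 nt held 30 counts of PABPC1, 13 of NACA, 5 of EEF1G, 4 of EEF1D and 2 of EEF1A1. In GM01953 they held 1 count of PABPC1 and 0 of the other 4. With a count of 0, the upper limit of the share was 7.56% for NACA and 43.45% for EEF1D. A difference between the lines was thus not detectable for these genes at this depth. The share near the cap also depended on the annotated start: with the transcripts of highest density in place of the MANE Select forms, a choice made after seeing the data, the summed values were 4.73% and 7.07%, and with the longest transcripts 3.96% and 9.13%.

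Within the pyrimidine runs themselves, 127 counts were found in DoHH-2 and 15 in GM01953, over 70 nt in 8 mRNAs. TPT1 had 55 of them in DoHH-2 and 8 in GM01953, in a run of 7 nt, which is 3.68% and 11.8% of its mRNA counts. EEF1B2 had 27 and 2, EEF2 had 17 and 2, and BTF3 had 8 and 3. A further 32 counts in DoHH-2 and 4 in GM01953 lay at the base just upstream of the annotated start, 16 of them on TPT1 and 9 on EEF2 in DoHH-2. Over all coding genes the base upstream of the start also had more counts than its neighbours, 2137 in DoHH-2 beside 779 at the base before it and 1514 at the first base of the mRNA.

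The single positions with most counts are shown with their surroundings, because some are shared by the lines and others are not. Each line gives up to 12 nt to either side, 5′ to 3′ in DNA letters from GRCh38, within the exon, with the cross-link position in capitals. The positions are the CDS of EEF1A1 at base 327 of the mRNA (chr6:73519385-73519409, minus strand), the CDS of EEF2 at base 642 (chr19:3982848-3982872, minus), the 3′ UTR of TPT1 at bases 791 (chr13:45337216-45337240, minus) and 731 (chr13:45337276-45337300, minus), the end of the CDS of NACA at base 6266 (chr12:56712536-56712552, minus), and the 5′ UTR of BTF3 at bases 21 (chr5:73498450-73498474, plus) and 39 (chr5:73498468-73498492, plus).
EEF1A1 base 327: gtactatgtgacTatcattgatgcc
EEF2 base 642: gagaacgtgaacGtcatcatctcca
TPT1 base 791: aggcattgttttTaagaaaaacatg
TPT1 base 731: aatgggactgatGtcatcttgagct
NACA base 6266: gaatTaacaatgtaacc
BTF3 base 21: ctgccatcttgcGtccccgcgtgtg
BTF3 base 39: gcgtgtgtgcgcCtaatctcaggtg

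NACA had the same leading position in both lines, with 15 of 456 counts in DoHH-2 (3.29%) and 14 of 54 in GM01953 (25.9%). It lies in the last exon, 10 nt before the end of the CDS, and its share differed widely between the lines. TPT1 base 791 led in DoHH-2 with 104 counts and had 3 in GM01953, and base 731 led in GM01953 with 8 and had 76 in DoHH-2. Both TPT1 positions lie in repeated sequence. EEF1A1 base 327 had 26 counts in DoHH-2 and 2 in GM01953. Base 321, 1 of a pair tied at 3 counts in GM01953, lies close upstream of it. In BTF3 base 21 led in DoHH-2 with 16 counts and base 39 in GM01953 with 5, and each had 1 count in the other line.

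EEF2 had different leading positions in the lines. Base 642 had 68 counts in DoHH-2 and 0 in GM01953. Within 5 nt of it lay 104 counts in DoHH-2 (3.64% of the gene) and 1 in GM01953 (0.398%). The leading GM01953 position, base 896, had 9 counts there and 0 in DoHH-2, with 11 counts of DoHH-2 within 5 nt. Both lie in unique coding sequence. These positions were picked for their counts, and the differences are given as a description.

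Of the 316 positions with a count listed under the 9 genes in GM01953, on the mRNA or off it, 223 (70.6%) also had a count in DoHH-2, which is 6.73% of the 3315 DoHH-2 positions. Over all coding genes 33.0% of GM01953 positions and 2.07% of DoHH-2 positions were shared. The members have more counts than most coding genes, and the part of this in the overlap was not tested. By gene, the shared part of GM01953 positions was 82.5% for TPT1, 78.0% for EEF2, 72.7% for EEF1A1, 67.6% for BTF3, 66.7% for NACA and EEF1G, 57.1% for PABPC1, 54.5% for EEF1B2 and 37.5% for EEF1D.

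Uridine was the base most often found at the cross-link position. It took 40.0% of the mRNA counts of the 9 genes in DoHH-2 (38.9% to 41.2%) and 39.9% in GM01953 (35.9% to 43.9%), while it makes up 22.1% and 21.8% of their bases when each mRNA is weighted by its counts. Adenine took 12.7% and 8.32% beside 25.5% of bases. Over all coding genes uridine took 42.4% and 39.9% of counts. Among the 9, the uridine share in DoHH-2 ran from 27.3% in BTF3 (22.7% to 32.5%) to 46.2% in PABPC1 (43.0% to 49.5%).

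Counts outside the MANE Select mRNA made up 13.5% of the total in DoHH-2 and 5.72% in GM01953. In DoHH-2 they were lowest in BTF3 (3.67%) and EEF2 (4.93%) and highest in EEF1D (66.9%), EEF1B2 (38.8%) and EEF1A1 (33.6%). Part of them lay in exons of other coding transcripts of the same gene: 89 of 269 for EEF1D, 38 of 101 for EEF1B2 and 55 of 103 for EEF1A1. The snoRNA genes within the spans of these genes held few counts, with at most 11 in DoHH-2 (SNORA31B in TPT1) and at most 2 in GM01953 (SNORD37 in EEF2).

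Other genes of the same functions were compared by counts alone. The other elongation factors, poly(A)-binding proteins and NAC subunits (11 genes, among them EIF5A, PABPC4 and the non-TOP paralogue EEF1A2) together took 0.107% of the DoHH-2 counts and 0.124% of the GM01953 counts, with 6 and 1 of them bound, and a median ratio of 0.779 over the 3 with a mean of at least 100 CPM. EEF1A2, which replaces EEF1A1 in muscle and neurons, had a single count, in DoHH-2, which did not lie on its mRNA. A set of 14 other TOP mRNAs held 0.439% and 0.392%, with 14 and 7 bound, and a median ratio of 1.13 over the 11 with a mean of at least 100 CPM. The 86 cytosolic ribosomal protein genes held 2.12% and 2.11%, with 76 and 37 bound, and a median ratio of 1.02 over 59. At least 2-fold higher in DoHH-2 were 6 of the 59 ribosomal protein genes, 2 of the 11 other TOP mRNAs and 0 of the 3 other factors, and at least 2-fold lower were 1, 1 and 0, beside 15.3% and 15.7% of all coding genes above the same limit.

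In DoHH-2 the highest levels per length in these lists were those of the ribosomal protein mRNAs RPS24 (1405 CPM per kb in DoHH-2 and 2061 in GM01953), RPLP2 (1207 and 1243) and RPL5 (1170 and 1129), all above EEF2 in both lines. The lowest were EEF1A2 and RPL21, each with 0 counts on the MANE Select mRNA in DoHH-2, although 48 counts were listed under RPL21 there.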

How the data were processed

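eIF4B iCLIP was performed on DoHH-2 (4 replicates) and GM01953 (2 replicates). Per the study's methods, the authors removed PCR duplicates with BBMap, demultiplexed with Je, trimmed, mapped to GRCh38 with HISAT2 and counted cDNAs per cross-link position with iCount. Replicates with few reads were merged by the authors before mapping. The deposited counts are whole, unnormalized numbers from pooled replicates, with 1 table per cell line. The deposited FDR, an adjusted p-value (q-value), was computed by the authors with iCount from permutations within each gene, and it was used only as a threshold of 0.05. Versions are not given in the sources used here.

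The members and lists were chosen with earlier results of these data known. Positions listed under several genes were counted once in totals. Positions, deposited counting from 0, were moved by 1 base, and placed on MANE Select transcripts of GENCODE release 44. No density was computed for a region below 10 nt. Ratios were computed for coding genes with a mean of at least 100 CPM, and a gene with 0 counts in 1 line was given 3 there, as the limit of a 0 count. Uniqueness was decided by exact matches of words of 31 nt over 3099750718 bases. Named genes are the 9 members, their position with most counts in each line, and the 3 highest and the lowest genes of the comparison lists per kb in DoHH-2. Python 3.11.15, numpy 2.4.6, pandas 2.3.3 and scipy 1.17.1 were used. The steps were tested on simulated data with counting error only and no spread between replicates. Of 200 genes planted at a 4-fold ratio among 1908, 99 of 100 higher and 99 of 100 lower genes passed 2-fold, as did 22 of 1708 others. The 5′ UTR was the densest region in 97 of 100 genes planted there at 8-fold density. With even counts along the mRNA it was densest in 22 of 100.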

Additional observations from a re-analysis of the deposited data

Results flagged for a closer look

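Counts were also found under the names of processed copies of the 9 genes, which no comparison above used: 292 in DoHH-2, at 245 positions in 62 copies, and 42 in GM01953, at 28 positions in 17 copies. There are no control libraries to set these numbers against. Copies of EEF1A1 held 165 of them in DoHH-2 and 31 in GM01953, beside 307 and 19 counts under EEF1A1 itself, and EEF1A1P5 was the copy with most, 44 and 9. In GM01953 the copies of EEF1A1 thus held more counts than the gene. Copies of TPT1 held 41 and 3, those of EEF1B2 22 and 1, and those of NACA 18 and 6. EEF2 has no processed copy by name. Whether these reads came from the copies or from the parent mRNAs was not tested.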

How the results depend on the processing

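No paired analysis was possible because the replicates of each cell line were pooled before deposit, and for the same reason no replicate could be left out. The values are limited by counting error, by the unknown spread between replicates and by the amount of each mRNA, which the files do not hold. In GM01953, EEF1A1, EEF1B2, EEF1D and EEF1G rest on 14 to 19 counts each.

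Of 64 alternatives, 23 stayed within the interval of the reported value, or within 1.5 times a reported number of genes, and 41 did not. The cause was not tested except where the construction shows it. Shares at positions with an FDR below 0.05 are out of the counts at such positions, so their totals differ too. The summed share of 0.368% in DoHH-2 became 0.614% at positions with an FDR below 0.05, 0.439% without histone genes in the total, 0.432% of coding counts, 0.318% on MANE Select exons, 0.281% with each position counted once and 0.319% in unique sequence. The share of 0.366% in GM01953 became 0.417%, 0.409%, 0.466%, 0.345% (within its interval), 0.403% and 0.315%. Their ratio became 1.47 at positions with an FDR below 0.05, 0.922 on MANE Select exons and 0.698 with each position counted once. The number of genes past the fold in favour of DoHH-2 was 2 at a fold of 1.5 or without histone genes (EEF1D and TPT1) and 2 at positions with an FDR below 0.05 (EEF1B2 and TPT1), where 0 were 2-fold lower. With more than 50 counts asked for, 3 genes (EEF2, TPT1 and PABPC1) were bound in GM01953, and 9 in DoHH-2. The shares of all coding genes past these altered settings were not computed, so these numbers of genes have no background beside them.

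The 5′ UTR and start codon share of 15.3% in DoHH-2 became 13.2% on the longest transcript, 16.8% at positions with an FDR below 0.05, 16.5% with each position counted once, 16.6% in unique sequence, 21.2% with members weighted equally and 14.2% with codon regions of 25 nt. That of 25.3% in GM01953 became 17.5% on the longest transcript and 29.7% with each position counted once. The first 50 nt share of 6.88% in DoHH-2 became 3.96% on the longest transcript, 7.88% at positions with an FDR below 0.05, 7.79% in unique sequence, 11.9% with equal weights and 4.37% for the first 30 nt. That of 12.3% in GM01953 became 9.13% on the longest transcript and 5.89% for the first 30 nt. Further alternatives were chosen after seeing the data. With the CCDS transcript of highest density, the 5′ UTR and start codon share was 17.1% in DoHH-2, and the first 50 nt held 4.73% in DoHH-2 and 7.07% in GM01953. Without EEF2 and TPT1, the 5′ UTR and start codon share was 25.6% in DoHH-2 and 40.2% in GM01953, and the first 50 nt held 11.3% and 15.4%. In each of these alternatives both shares were higher in GM01953 than in DoHH-2.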
